A study of Mus musculus with 8 samples.

Results

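The Folr2-high macrophage cluster was taken from single-cell RNA sequencing of CD45+ cells that had infiltrated beta cell grafts. Among the cells annotated as macrophages, the 6 clusters of at least 50 cells were compared, and cluster 13 of the deposited annotation was chosen by its summed level of Folr2, the highest of the 6. It held 551 of 7179 macrophages (7.68%) and 2.46% of all 22441 cells, and the remaining 6628 macrophages lay in the other 5 clusters. The choice used Folr2, and the clusters themselves were made from all genes of these cells, so every level that sets the cluster against other macrophages is a description without a test. The label was checked against the fixed macrophage markers, of which 12 of 12 were detected in each of the 8 day 10 grafts, and their summed level was between 18990 and 31399 CPM (the UMIs of a gene in the summed cells, scaled to a common total).

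NIT-1 is a beta cell line from the NOD mouse, a model of type 1 diabetes. WT NIT-1 cells or NIT-1 cells mutant for Rnls, which encodes renalase, were grown under the skin of immunodeficient NOD.scid mice, on opposite flanks, and all mice then received syngenic autoreactive splenocytes from diabetic NOD donors. Grafts were collected on day 10 or day 17 after transfer, dissociated with collagenase and sorted for CD45+ cells. Each of the 4 groups (WT day 10, Rnls mutant day 10, WT day 17 and Rnls mutant day 17) held 4 grafts, marked by hashtag antibodies and pooled into 1 library, so that genotype and day cannot be told apart from the library. NOD.scid hosts lack T and B cells but keep macrophages, and whether a macrophage came from the host or with the splenocytes was not tested. Rnls itself was not analysed here. The sources used here do not say which mouse carried which hashtag.

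Folr2 encodes folate receptor beta, a membrane protein that binds folate and is carried by many tissue-resident macrophages. Resident macrophages of this kind commonly also express Lyve1, a hyaluronan receptor, the scavenger receptors Cd163 and Mrc1, the phosphatidylserine receptor Timd4 and the C1q chains, which start the classical complement pathway and tag dying cells. Macrophages that newly arise from monocytes in inflamed tissue usually carry little of this program and more interferon-induced chemokines and inflammatory cytokines.

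Cells of the cluster had a median of 6331 UMIs, against 3520 over all cells, and in the grafts that gave at least 10 of its cells their summed depth was between 91257 and 893017 UMIs. Its median of UMIs per cell was 6092 ± 346 in WT and 7559 ± 308 in Rnls mutant grafts at day 10 (SD, n = 4). Across the libraries 42 cell barcodes occurred more than once, and 2 cells of the cluster carried such a barcode. T cell markers summed to at most 49.4 CPM in the cluster at day 10, against 3296 CPM or more in cells that were no macrophages, and the 13 beta cell markers were at 0 in these grafts. A pair of grafts stood apart within the cluster. Rnls mutant day 10 graft 3 gave only 12 cells, with Folr2 at 153 CPM, Klra8 at 0 and Cxcl9 at 855 CPM. WT day 17 graft 2 gave 13 cells, with Folr2 at 25.1 CPM, Mrc1 at 41.9 CPM and Apoe at 15507 CPM. Day 10 medians and ranges include the former, and ratios over 9 grafts include both, with the ratios over the other 7 grafts given beside them for the genes described.

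Folr2 (gene ENSMUSG00000032725) is encoded at chr7:101839988-101857194 of GRCm38 (minus strand). Its level summed over cells was 535 CPM in the cluster. The second cluster in the order, cluster 2, held 389 CPM and lay just outside the choice, followed by cluster 10 with 264 CPM, cluster 12 with 125 CPM and cluster 5 with 103 CPM. Cluster 4, which was the highest in Cxcl9, was at 13.6 CPM. Averaged over grafts with at least 10 cells, the cluster held 449 ± 212 CPM (SD, n = 9) and cluster 2 held 436 ± 153 CPM (SD, n = 11), a gap far smaller than the spread between grafts. The first 2 clusters in this order thus lay within the spread of each other, while cluster 4 lay apart from both.

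In WT grafts at day 10 Folr2 was at 612, 542, 505 and 525 CPM in the cluster, and in Rnls mutant grafts at 568, 630, 153 and 483 CPM. The other macrophages of the same grafts held 39.2, 31.7, 86.3 and 135 CPM in WT and 7.16, 22.7, 3.90 and 47.7 CPM in Rnls mutant grafts. The cluster was above the other macrophages in 8 of 8 grafts, and only Rnls mutant graft 3 lay well below the common level. At day 17 the single graft with enough cells held 25.1 CPM. In cells thinned to 2000 UMIs, 54.7% of the cluster had a Folr2 UMI (79.5% unthinned, 4 cells left out), against 47.1% in cluster 2 and 2.04% in cluster 4. In CD4 T cells, which should lack the gene, the thinned share was 0.739% (median depth 2824 UMIs, 818 of 4876 cells left out).

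RefSeq lists 2 start sites for Folr2. The 250 bases before each are shown because Folr2 names the cluster, with capitals for TGCTGA or its reverse complement, the core of the element bound by Maf proteins, which act in resident macrophages. They span chr7:101857191-101857440 and chr7:101845332-101845581 of GRCm38.p6, both on the minus strand.
Folr2 first start: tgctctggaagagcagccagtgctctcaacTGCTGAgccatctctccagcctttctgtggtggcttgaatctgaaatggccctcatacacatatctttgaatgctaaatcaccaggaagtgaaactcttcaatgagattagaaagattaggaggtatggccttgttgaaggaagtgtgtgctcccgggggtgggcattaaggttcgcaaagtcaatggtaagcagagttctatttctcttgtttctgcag
Folr2 second start: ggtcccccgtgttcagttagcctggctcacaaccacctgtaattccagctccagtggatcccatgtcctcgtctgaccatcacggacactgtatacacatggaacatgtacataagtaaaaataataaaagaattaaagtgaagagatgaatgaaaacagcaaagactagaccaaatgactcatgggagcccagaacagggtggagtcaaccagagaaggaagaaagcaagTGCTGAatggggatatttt
Each window held 1 match, at 220 and 19 bases before the start. The letters occurred in 16.1% of all 32851 windows and in 8 of 25 windows (32.0%) of the resident macrophage list, for 21 of whose 26 genes a window was found. A match is a string of letters and not a measured binding site. Maf itself was at 384 to 665 CPM in the cluster at day 10 and at 87.6 to 218 CPM in other macrophages of these grafts.

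**Figure D1:**
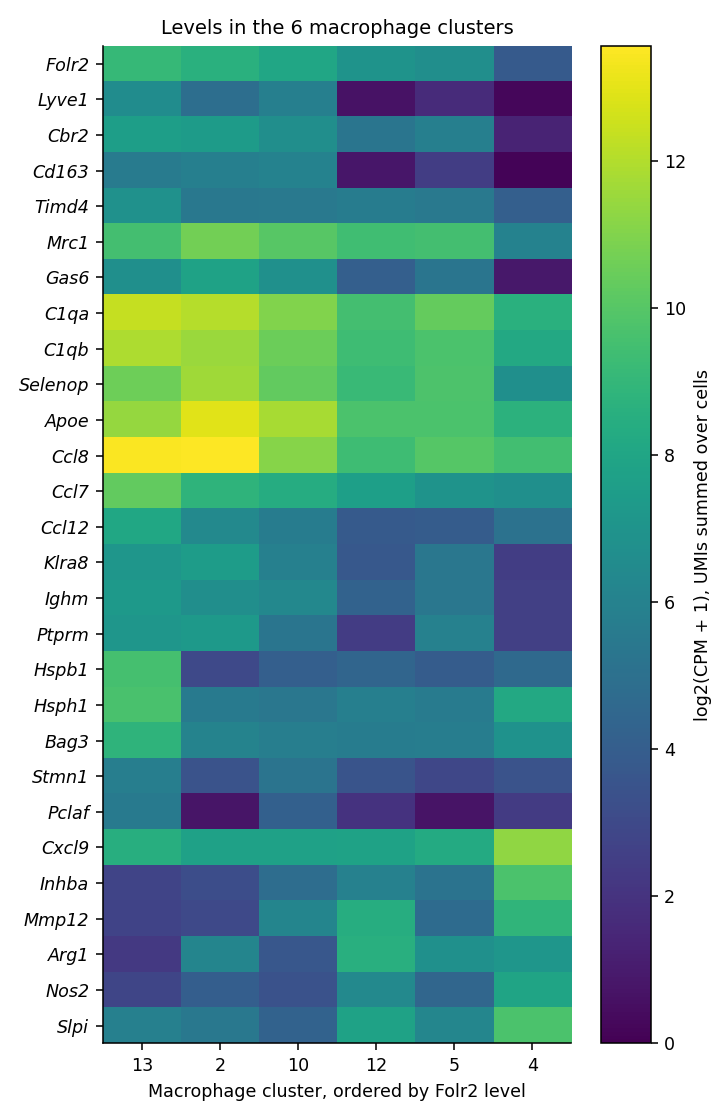
Levels of 28 genes in the 6 macrophage clusters, ordered by Folr2 from the left, as log2(CPM + 1) of UMIs summed over all cells of a cluster. The Folr2-high cluster 13 and cluster 2 share high C1qa, C1qb and Ccl8, while Hspb1 is at 759 against 6.93 CPM, in clusters that come mostly from day 10 and from day 17, and Inhba and Cxcl9 are highest in cluster 4.

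The cluster was mainly found at day 10. Of its cells, 509 (92.4%) came from day 10 grafts, 328 of them WT and 181 Rnls mutant, and 20 WT and 22 Rnls mutant cells came from day 17. Its share of macrophages was 24.6, 16.5, 36.5 and 23.4% in WT grafts at day 10 and 6.92, 38.2, 9.92 and 13.8% in Rnls mutant grafts. Exact 95% binomial intervals, which cover counting error only, ran from 31.1 to 42.3% in the highest WT graft and from 4.75 to 9.68% in the lowest Rnls mutant graft. Of the Rnls mutant grafts, 3 lay below all WT grafts and graft 2 lay above them all. The means were 25.3 ± 8.33% for WT and 17.2 ± 14.3% for Rnls mutant (SD, n = 4), a difference of 8.06 percentage points that the two-sided exact permutation test did not call (p = 0.371, smallest possible 0.0286). Of the 25 genes with the highest and the 10 with the lowest ratio of the cluster to other macrophages, 27 could be tested for genotype within the cluster and 0 passed, as described with the genotype comparison. Without Rnls mutant graft 2, the graft with the highest share, the difference was 15.1 points (exact permutation p = 0.0571, with 35 assignments). Without any other single graft the exact permutation p was 0.314 to 0.686.

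At day 17 the share was between 0.339 and 1.27% in 7 of 8 grafts and 12.1% in WT graft 2. The Rnls mutant mean was 0.781 ± 0.406% and the WT mean 3.57 ± 5.73% (SD, n = 4, exact permutation p = 0.629), and without WT graft 2 the WT mean was 0.708%. Over both days the genotype difference was 5.42 points, lower in Rnls mutant grafts (exact permutation p = 0.236, permuted within days). Between days the mean went from 21.2 ± 11.6% to 2.17 ± 4.04% (SD, n = 8). This is given without a test, because genes that lead the cluster, such as Hspb1, differed between the days in other cells too (8.88 to 152 CPM in other macrophages at day 10 and 0 to 8.25 CPM at day 17), and because day and library cannot be told apart. The share of macrophages among CD45+ cells was itself 17.0 ± 6.14% and 15.9 ± 9.01% at day 10 and 48.9 ± 23.7% and 61.1 ± 3.23% at day 17, for WT and Rnls mutant grafts. As a share of all CD45+ cells, the cluster was at 3.59 ± 2.55% at day 10 and 0.832 ± 1.18% at day 17.

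**Figure D2:**
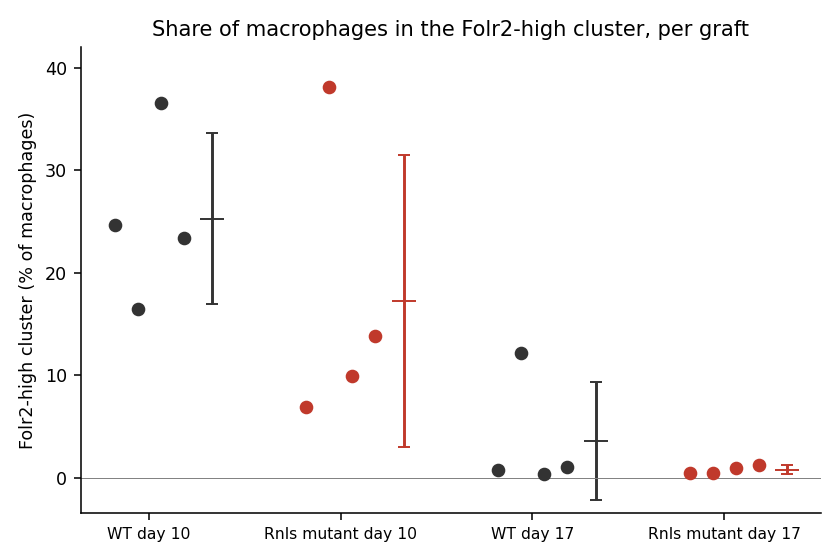
Share of macrophages that lay in the Folr2-high cluster, in percent, for each graft (points, WT in black and Rnls mutant in red) with the mean and SD of the 4 grafts of a group beside them. The 8 day 10 grafts lie between 6.92 and 38.2%, and 7 of the 8 day 17 grafts lie at or below 1.27%.

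Within grafts, the cluster held more of the complement and resident macrophage transcripts and less of the monocyte, glycolysis and matrix transcripts than the other macrophages. Cluster 4 held between 35.8 and 85.7% of the macrophages of a day 10 graft. Of the 3282 genes at 50 CPM or more in either compartment, 371 (11.3%) were higher and 516 (15.7%) were lower in the cluster in 8 of 8 day 10 grafts. Of the 13 genes of the complement and apolipoprotein list, 10 reached that level, and 9 of them were higher in 8 of 8 grafts (median log2 ratio 2.25, against -0.06 for all genes). Of the 26 genes of the resident macrophage program, 18 reached it and 9 were higher in 8 of 8 grafts (median 2.74).

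Values follow for the genes that lead these groups. C1qa, a chain of C1q, was at 5433, 5065, 4812 and 5279 CPM in WT and at 5863, 5785, 2970 and 5733 CPM in Rnls mutant grafts at day 10. Other macrophages of the same grafts held between 417 and 1000 CPM, below every value of the cluster. C1qb and C1qc, which lie beside C1qa on chromosome 4 (136880129 to 136898803), had day 10 medians of 3733 and 2415 CPM in the cluster and of 373 and 252 CPM in other macrophages. The mean log2 ratio over the 9 grafts was 2.97 ± 0.86 for C1qa, 2.87 ± 0.83 for C1qb and 2.86 ± 0.72 for C1qc (SD, n = 9). Without the pair of grafts that stood apart the ratios were 3.26 ± 0.59, 3.12 ± 0.64 and 3.07 ± 0.57 (SD, n = 7). These chains varied less between grafts than Folr2, whose ratio was 3.02 ± 3.07 over 9 grafts and 3.81 ± 1.39 over the 7 grafts without the pair that stood apart.

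Fcna, a secreted lectin that activates complement, was higher in 7 of 9 grafts (2.87 ± 3.66), and C6, a part of the membrane attack complex, in 7 of 9 (3.29 ± 3.17). Selenop, a secreted selenium carrier, was higher in 8 of 9 grafts (2.68 ± 2.01), as was Cp, the iron oxidase ceruloplasmin (2.78 ± 1.80). Hpgds, which makes prostaglandin D2, was higher in 9 of 9 grafts (2.83 ± 0.65). Gas6, a bridge between dying cells and TAM receptors, was higher in 7 of 9 (2.62 ± 4.59), while its receptor Axl was lower in the cluster in 8 of 8 day 10 grafts (median 18.8 against 47.0 CPM). The wide SD of Gas6, C6 and Fcna comes with 0 CPM of Gas6 and C6 in Rnls mutant graft 3. Over the 7 grafts the ratios were 4.44 ± 2.20 for Fcna, 4.54 ± 2.21 for C6, 3.43 ± 0.92 for Selenop, 3.46 ± 1.28 for Cp, 2.99 ± 0.30 for Hpgds and 4.50 ± 2.01 for Gas6, each higher in 7 of 7. These traits were not all particular to the cluster. Summed over cells, Selenop, Gas6 and C6 were at 1525, 107 and 92.6 CPM in it and at 3212, 222 and 125 CPM in cluster 2. Fcna, Cp and Hpgds were highest in the Folr2-high cluster.

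The other resident markers were uneven between grafts. Lyve1 was at 126, 233, 24.6 and 0 CPM in WT and at 255, 110, 0 and 77.1 CPM in Rnls mutant grafts at day 10, so that some grafts of each genotype lacked it. Its median was 93.4 CPM in the cluster and 0.977 CPM in other macrophages. Timd4 was detected in every one of these grafts, from 70.4 to 179 CPM (median 123), and other macrophages lay between 3.13 and 44.7 CPM, below all values of the cluster. Mrc1, the mannose receptor, was at 263 to 815 CPM (median 758) against 39.4 to 228 CPM. Cbr2, a carbonyl reductase of resident macrophages, had medians of 203 and 6.19 CPM and Adgre1, which encodes F4/80, of 284 and 95.8 CPM. Lyve1, Timd4, Cbr2 and C1qa were higher in the cluster than in any of the other 5 macrophage clusters when UMIs were summed over cells. By the same sums, Mrc1 (735 against 1639 CPM) and Apoe (2744 against 8093 CPM) were higher in cluster 2. Cd163 was at 49.6 CPM, below cluster 2 (56.9 CPM) and cluster 10 (63.3 CPM). All 26 genes of the resident macrophage program together held 18701 CPM in the cluster and 23497 CPM in cluster 2.

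Most other genes of folate handling were at low levels. Of the 20 genes of the folate and one-carbon list, 2 reached 50 CPM. Slc19a1, the reduced folate carrier, had medians of 2.87 CPM in the cluster and 2.03 CPM in other macrophages. Mthfd2, a mitochondrial folate enzyme, was lower in 7 of 8 grafts (16.6 against 37.8 CPM). Across the 6 clusters, the genes whose level followed Folr2 most closely included Akr1b3 (Pearson's r = 0.993), Cbr2 (0.986), Pepd, Ehd4, Serpinb6a, Fcna, Gnpda1, Tpr and Rab3il1 (0.974). These correlations describe 6 points that share cells and libraries.

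The cluster was also marked by chemokines of the Ccl2 locus. Ccl8, a ligand of CCR8 and other receptors, was at 9408, 10863, 12593 and 15001 CPM in WT and at 12360, 13346, 8427 and 8926 CPM in Rnls mutant grafts, and other macrophages held between 750 and 2654 CPM. Ccl7 and Ccl12, ligands of CCR2, had medians of 1327 and 270 CPM in the cluster against 142 and 29.9 CPM. Ccl2, Ccl7, Ccl12 and Ccl8 lie in this order on chromosome 11, between 82035571 and 82116799 on the plus strand, and all 4 were higher in the cluster in 8 of 8 grafts. Ccl8 was not particular to the cluster, at 11271 CPM in it and 12130 CPM in cluster 2 when summed over cells. By these sums Ccl2, Ccl7 and Ccl12 were highest in the cluster. Other chemokines went the other way. Cxcl9 and Cxcl10, which are induced by interferon gamma, were lower in 8 of 8 grafts, with medians of 376 and 399 CPM against 1932 and 921 CPM, and so was Ccl5 (464 against 2817 CPM). For Cxcl9 and Cxcl10 this was a difference from cluster 4. In sums over cells, which mix days, only cluster 4 (2537 and 935 CPM) held more of either than the cluster (364 and 322 CPM). Ccl5 was at 458 CPM in the cluster, 689 CPM in cluster 2 and 3579 CPM in cluster 4. In all, 5 of the 14 chemokine genes at 50 CPM were higher and 4 were lower in 8 of 8 grafts.

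The 250 bases before the start of Ccl8 (chr11:82114935-82115184, GRCm38.p6, plus strand) are shown because Ccl8 was the most abundant chemokine of the cluster, with the same letters in capitals as for Folr2.
Ccl8: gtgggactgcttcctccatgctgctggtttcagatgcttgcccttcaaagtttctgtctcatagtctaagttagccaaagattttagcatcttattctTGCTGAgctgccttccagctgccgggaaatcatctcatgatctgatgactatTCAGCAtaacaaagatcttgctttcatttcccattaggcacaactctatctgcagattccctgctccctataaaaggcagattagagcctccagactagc
They held 2 matches, at 152 and 100 bases before the start. In the windows of other genes searched for these letters, Ccl12 held 1 match and Cd163, Cbr2 and Gas6 held 0.

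Transcripts usually named for lymphoid cells were part of the cluster. Klra8 and Klra9, from the Ly49 receptor family of NK cells on chromosome 6, were at 125.5 and 124 CPM (day 10 medians), against 3.59 and 2.94 CPM in other macrophages. Ighm, the heavy chain of IgM, had medians of 155 and 3.78 CPM and Ptprm, a receptor phosphatase, of 119 and 5.72 CPM. In the ranking over 9 grafts the ratio was 3.96 ± 1.89 for Ighm, 3.68 ± 1.65 for Ptprm, 3.48 ± 2.84 for Klra8 and 3.39 ± 2.53 for Klra9. Over the 7 grafts it was 4.56 ± 1.47, 3.97 ± 0.75, 4.77 ± 1.41 and 4.55 ± 1.15, in the same order. After thinning, 20.5% of the cluster and 26.6% of cluster 2 had a Klra8 UMI, against 0.815% of cluster 4 and 0.246% of CD4 T cells. All 11 markers of NK cells and ILC1 together summed to 54.8 to 244 CPM in the cluster and to 2233 CPM or more in cells that were no macrophages at day 10. Members of the Klra family have near-identical copies, so the counts of Klra8 and Klra9 may have been divided between genes and are uncertain.

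Genes of DNA replication were also among the 25 highest, with Pclaf, a PCNA partner, at a ratio of 3.09 ± 1.54 and the histone gene Hist1h1b at 2.86 ± 2.79 (2.93 ± 1.33 and 2.57 ± 2.90 over the 7 grafts), although 1 of the 7 cell cycle genes at 50 CPM was higher and 1 was lower in 8 of 8 grafts. The remaining genes of the 25 were Smagp, Tmem176a, Tmem176b, Serpinb6a and Slc9a9, beside Hspb1, which is described with the heat shock genes. With UMIs pooled over all grafts the ratio of Slc9a9 turned to -0.58, and 4 of the 25 genes stayed among the 25 highest.

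The 10 genes with the lowest ratios were Inhba, AA467197, Hp, Mmp12, Slc7a11, Sdc1, F10, Olr1, Procr and Arg1, all lower in the cluster in 9 of 9 grafts. Inhba, which encodes the activin A chain, was at 0 to 22.0 CPM in the cluster at day 10 and at 220 to 1187 CPM in other macrophages (ratio -7.27 ± 1.93). Arg1, which breaks down arginine, was at 0 to 7.70 CPM against 10.6 to 250 CPM (-5.07 ± 2.72), and Mmp12, the macrophage elastase, at 0 to 87.7 CPM against 126 to 516 CPM (-5.51 ± 2.77). Over the 7 grafts these ratios were -7.31 ± 1.80, -5.21 ± 2.45 and -6.45 ± 2.35. Nos2, the inducible nitric oxide synthase, was likewise lower in 8 of 8 grafts (median 3.67 against 216 CPM), as was Il1b (174 against 1731 CPM). In sums over cells, which mix days, Inhba and Mmp12 were also low in cluster 2 (8.38 and 7.05 CPM, against 5.93 and 5.66 CPM in the cluster). Arg1 and Nos2 were at 71.9 and 15.9 CPM in cluster 2 and at 3.77 and 6.19 CPM in the cluster. Il1b was lower in cluster 2 (105 against 242 CPM). Of the glycolysis genes 13 of 16 at 50 CPM were lower in 8 of 8 grafts and 0 were higher, with a median log2 ratio of -0.81. Of the monocyte genes 6 of 11 were lower (median -1.98), and of the growth factor and matrix genes 7 of 9 (median -1.73). Low glycolysis levels were not particular to the cluster. By sums over cells the list held 3918 CPM in the cluster, 3018 CPM in cluster 2, 4128 CPM in cluster 5 and 4172 CPM in cluster 10. Clusters 12 and 4 held 6628 and 6830 CPM. The monocyte list held 1788 CPM in the cluster and 1922 CPM in cluster 2, and the matrix list 1303 and 2145 CPM. The interferon gamma list was divided, with 8 of 24 genes lower and 2 higher, and none of 13 MHC class II genes was higher while 4 were lower in 8 of 8 grafts.

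**Figure D3:**
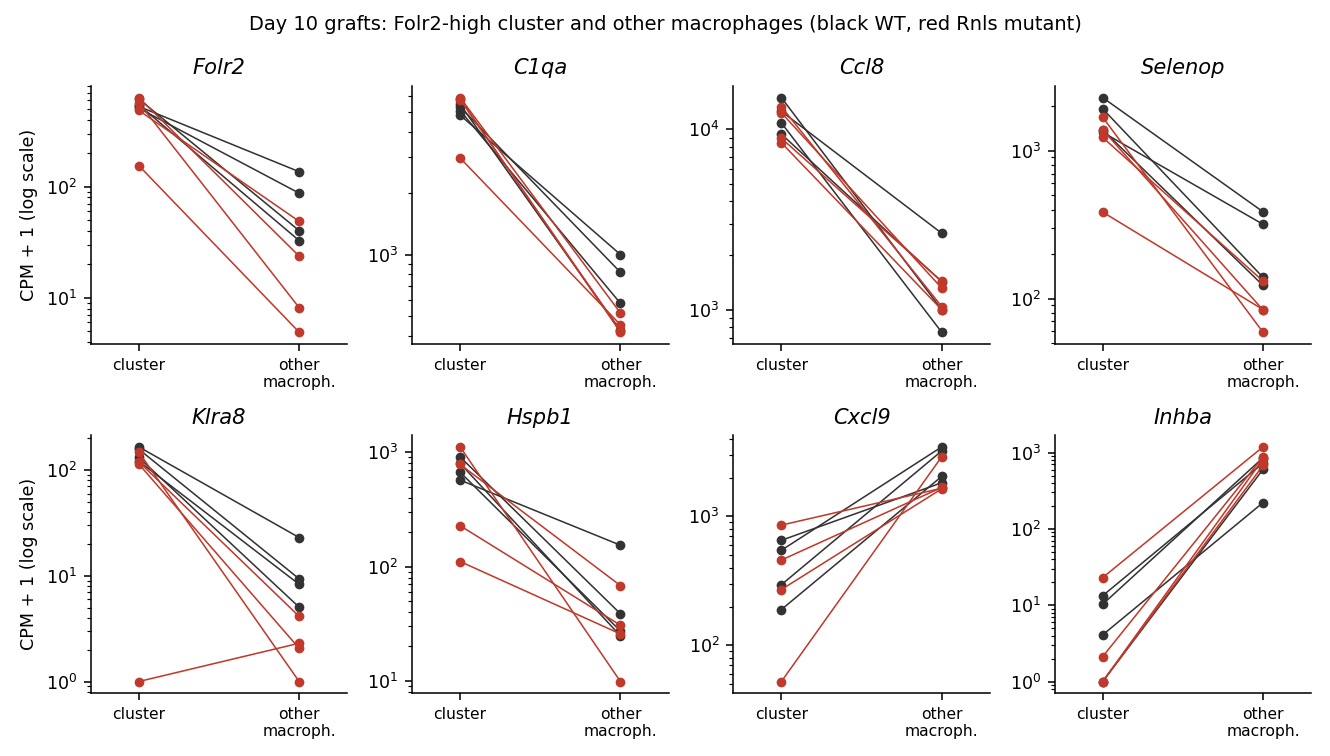
Levels of 8 genes as CPM + 1 on a log scale in the Folr2-high cluster and in the other macrophages, 1 line per day 10 graft. Folr2, C1qa, Ccl8, Selenop and Hspb1 are higher in the cluster in 8 of 8 grafts, Klra8 in 7 of 8, and Cxcl9 and Inhba are lower in 8 of 8.

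Cluster 2, the second in Folr2, was mostly a day 17 population (95.6% of its cells), but 3 WT day 10 grafts held 12 to 29 of its cells beside 48 to 110 cells of the Folr2-high cluster, which allowed the pair to be set side by side within a graft and day. WT day 17 graft 2, which stood apart, also held enough cells of both (13 and 20) and is given after them. In these grafts most of the resident and complement transcripts were at like levels. Folr2 was at 542, 505 and 525 CPM in the cluster and at 212, 470 and 487 CPM in cluster 2, and C1qa at 5065, 4812 and 5279 against 4445, 4364 and 4186 CPM. Ccl8 was at 10863, 12593 and 15001 against 9045, 12222 and 10625 CPM. Other transcripts stood apart in all 3 grafts. Ccl7 was at 1087, 1617 and 704 CPM against 241, 157 and 403 CPM, and Fos, an immediate early gene, at 2037, 2119 and 1871 against 495, 306 and 153 CPM. Stmn1, a tubulin-binding protein of dividing cells, was at 60.6, 58.5 and 61.7 CPM and listed at 0 in cluster 2. Hspb1 was at 666, 795 and 568 CPM against 0, 31.3 and 195 CPM. Lower in the cluster were Apoe, a lipid carrier (752, 3539 and 1815 against 3015, 10883 and 3018 CPM), Fabp5, a fatty acid binding protein (567, 494 and 497 against 3921, 2382 and 932 CPM), and Nrg1, a growth factor (12.7, 18.5 and 52.5 against 113, 188 and 153 CPM). WT day 17 graft 2 differed from this pattern, with Folr2 at 25.1 against 751 CPM, Ccl8 at 1022 against 9254 CPM and Apoe at 15507 against 14407 CPM. Stmn1, Fos, Fabp5 and Nrg1 were chosen after their values were seen, and the few cells of cluster 2 limit the precision of its levels.

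The highest ratio over 9 grafts belonged to Hspb1, a small heat shock protein, at 4.01 ± 1.57 (9 of 9 grafts). Over the 7 grafts without the pair that stood apart it was 4.18 ± 1.596 and ranked 9. Heat shock proteins are chaperones that refold damaged proteins. They were grouped after their values had been seen, as were the immediate early genes. Hspb1 (chromosome 5, 135887919 to 135889563, plus strand) was at 907, 666, 795 and 568 CPM in WT and at 779, 1109, 110 and 226 CPM in Rnls mutant grafts, against 8.88 to 152 CPM in other macrophages of these grafts. After thinning, 30.9% of the cells of the cluster had an Hspb1 UMI, against 0.477% in cluster 2, 1.98% in cluster 4 and 0.789% in CD4 T cells. Of the 18 heat shock and chaperone genes, 5 were higher in 8 of 8 grafts and 0 were lower (median log2 ratio 0.71). Hsph1, an Hsp110 chaperone, was higher in 7 of 8 grafts (median 793 against 293 CPM), as were Hspa1a, an inducible Hsp70 (3173 against 1335 CPM), and Bag3, an Hsp70 cochaperone (393 against 118 CPM). Dnajb1, an Hsp40 cochaperone, was higher in 8 of 8 (791 against 386 CPM). Of the 19 immediate early genes at 50 CPM, 4 were higher and 2 lower in 8 of 8 grafts. Egr1, a zinc finger factor, was at a median of 642 against 123 CPM and Klf2, a Krueppel-like factor, at 1556 against 228 CPM. Rnls mutant graft 3 departed from this, with 32.9 CPM of Bag3 and of Egr1.

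Heat shock transcripts also differed between the days in cells outside the cluster. The 18 genes together summed to 21752 to 33827 CPM in the cluster at day 10. They summed to 11660 to 24666 CPM in other macrophages and to 12727 to 20406 CPM in cells that were no macrophages at day 10, and to 3953 to 7634 CPM and 4368 to 6476 CPM in these at day 17. Day 10 and day 17 grafts did not overlap in either compartment. Hsph1 was at 353 to 751 CPM in cells that were no macrophages at day 10 and at 26.7 to 80.7 CPM at day 17. The immediate early genes did not follow this order, at 4614 to 6415 CPM at day 10 and 6874 to 10086 CPM at day 17 in cells that were no macrophages. Hspb1 differed from the other chaperones in that it was at most 90.9 CPM in cells that were no macrophages at day 10, below every value of the cluster. The part of the day or library in the heat shock levels of the cluster was not tested.

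Promoters of 3 of these genes are shown because they held a match to the heat shock motif searched, unlike those of Bag3 and Dnajb1. Capitals mark pairs of heat shock units, GAANNTTC or TTCNNGAA, each of which reads the same on both strands and which may overlap. The windows are the 250 bases before the RefSeq start in GRCm38.p6, at chr5:135887669-135887918 on the plus strand for Hspb1, chr5:149636337-149636586 on the minus strand for the first start of Hsph1 and chr17:34972157-34972406 on the minus strand for Hspa1a.
Hspb1: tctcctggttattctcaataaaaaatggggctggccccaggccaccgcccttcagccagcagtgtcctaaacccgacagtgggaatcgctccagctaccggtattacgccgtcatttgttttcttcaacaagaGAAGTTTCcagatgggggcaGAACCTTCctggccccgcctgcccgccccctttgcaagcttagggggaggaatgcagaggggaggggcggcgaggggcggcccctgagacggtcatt
Hsph1: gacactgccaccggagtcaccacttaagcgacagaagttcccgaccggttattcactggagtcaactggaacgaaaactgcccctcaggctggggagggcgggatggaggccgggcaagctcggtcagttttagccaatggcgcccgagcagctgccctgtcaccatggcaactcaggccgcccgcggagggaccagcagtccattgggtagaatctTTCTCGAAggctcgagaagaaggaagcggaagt
Hspa1a: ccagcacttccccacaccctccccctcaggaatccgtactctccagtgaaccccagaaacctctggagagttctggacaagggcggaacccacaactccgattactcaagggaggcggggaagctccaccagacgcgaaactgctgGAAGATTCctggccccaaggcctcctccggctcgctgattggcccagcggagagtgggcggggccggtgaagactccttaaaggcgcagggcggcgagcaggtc
Hspb1 held 2 matches, at 117 and 97 bases before the start, Hsph1 held 1 at 33 and Hspa1a 1 at 104. Of the 18 listed genes 15 had windows, and 9 of their 21 windows (42.9%) held a match, against 12.8% of all windows. The windows of Bag3 and Dnajb1 held none. Hspa1b has the same base as Hspa1a at 247 of 250 positions of this window, and the 2 genes are near-identical copies whose counts may have been divided.

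**Figure D4:**
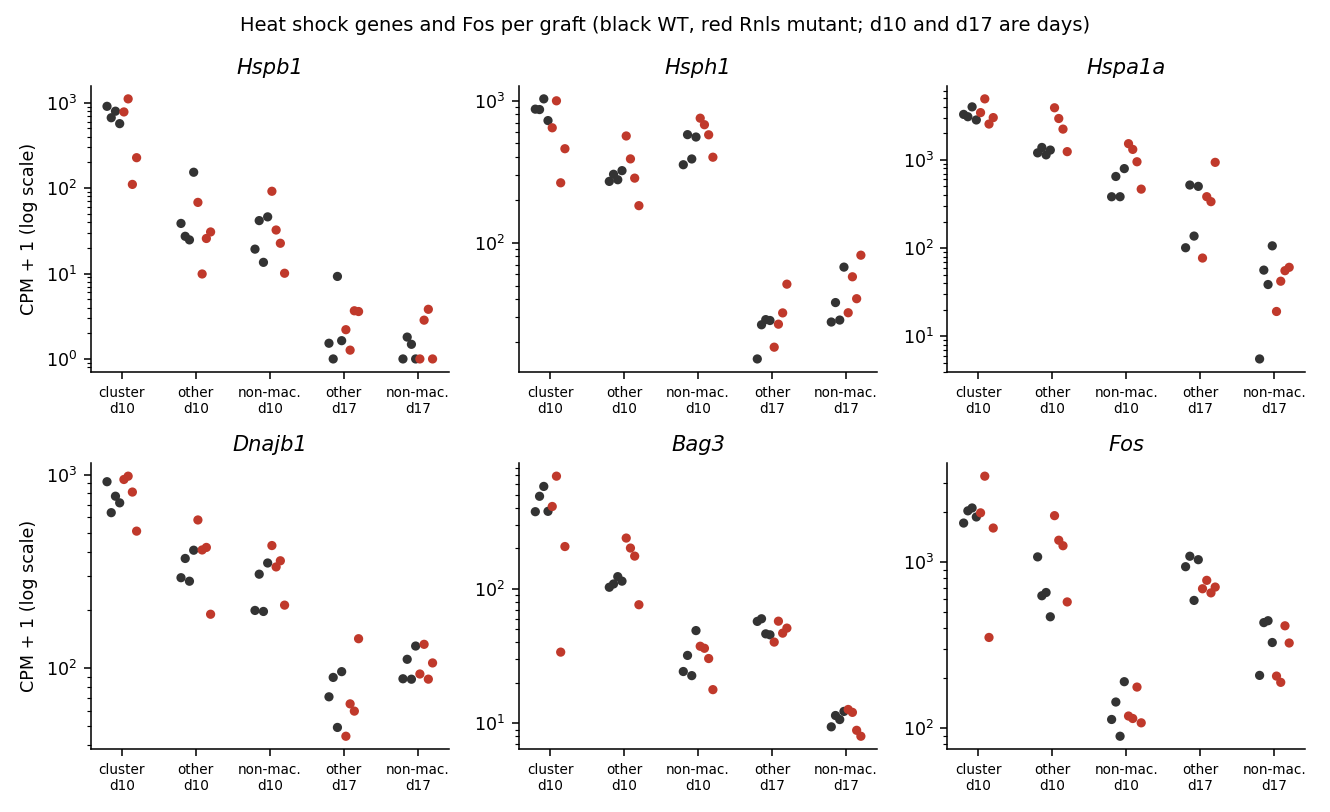
Levels of 5 heat shock genes and Fos as CPM + 1 on a log scale, 1 point per graft, in the Folr2-high cluster, other macrophages and cells that were no macrophages at day 10, and in the latter 2 at day 17. Hspb1 is high in the cluster (110 to 1109 CPM) and at most 152 CPM elsewhere, while Hsph1 and Hspa1a are also higher at day 10 than at day 17 in cells that were no macrophages.

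Within the cluster, WT and Rnls mutant grafts were compared at day 10 on summed counts of 4 against 4 grafts. With edgeR's quasi-likelihood test, 0 of 6422 genes passed a Benjamini-Hochberg adjusted p of 0.05 (0%), and 469 genes had an unadjusted p under 0.05. DESeq2 called 6, of which 2 were higher (Ccl2 and Txn1) and 4 lower (Akap13, Gm10076, Cdk8 and Cmss1) in Rnls mutant grafts. DESeq2 gave no adjusted p for 5602 of the 6422 genes. On simulated counts of this design, 98.5% of 197 genes changed by 1.5 on the log2 scale were called among 4153 tested. The simulated spread was that of a typical gene (dispersion 0.037) for all genes. In the data, genes that vary more between grafts, such as Cd163 and Bcar3, were not called at fold changes of this size. With edgeR no gene of the lists passed, while Ccl2, which DESeq2 called, is in the chemokine list. Genotype and library cannot be told apart here.

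Folr2 averaged 546 ± 46.5 CPM in WT and 459 ± 212 CPM in Rnls mutant grafts (SD, n = 4, exact permutation p = 0.657), and the groups overlapped. C1qa (5147 ± 270 and 5088 ± 1413 CPM), Ccl8 (11966 ± 2406 and 10765 ± 2453 CPM) and Hspb1 (734 ± 148 and 556 ± 470 CPM) overlapped too. Of the 25 genes with the highest ratio, 1 did not overlap. This was Slc9a9, a sodium/proton exchanger, at 167, 207, 169 and 210 CPM in WT and at 92.4, 138, 98.6 and 144 CPM in Rnls mutant grafts (edgeR adjusted p = 0.614). Among all 6422 genes tested, 115 (1.79%) lay below and 205 (3.19%) above WT without overlap, so 1 of 25 is near that share.

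The genes with the smallest p are given as values, with edgeR's adjusted p. Ccl2, which recruits monocytes through CCR2, was at 515, 797, 903 and 599 CPM in WT and at 1140, 1249, 1414 and 1892 CPM in Rnls mutant grafts. The groups did not overlap, with a log2 fold change of 0.95 ± 0.19 (SE) and an edgeR adjusted p of 0.298. In other macrophages Ccl2 was at 91.7 to 226 CPM in WT and 178 to 288 CPM in Rnls mutant grafts, which overlapped. Txn1, thioredoxin, was at 1533, 1635, 1403 and 1309 CPM and at 2236, 2219, 2345 and 2170 CPM (0.55 ± 0.12, edgeR adjusted p = 0.395), again without overlap. Chchd6, a mitochondrial cristae protein, was also higher in Rnls mutant grafts (14.3 ± 5.86 and 42.8 ± 2.90 CPM, edgeR adjusted p = 0.445), on 33 and 59 UMIs in all.

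Lower in Rnls mutant grafts were Akap13, an A-kinase anchoring protein (372 ± 39.7 in WT and 203 ± 19.8 CPM, edgeR adjusted p = 0.298), Gm10076 (387 ± 18.1 and 215 ± 37.9 CPM, edgeR adjusted p = 0.298) and Bcar3, an adaptor protein (52.1 ± 22.5 and 16.4 ± 9.48 CPM, edgeR adjusted p = 0.395). Gm10076 was separated in other macrophages as well, at 408 to 511 CPM in WT and 212 to 270 CPM in Rnls mutant grafts, so its difference was not limited to the cluster. Over all genes tested, 205 (3.19%) lay above and 115 (1.79%) below WT without overlap of the groups. Beside this background, the glycolysis list had 6 of 16 genes above and 1 below, with a median log2 fold change of 0.48 against -0.02 for all genes. The median difference between this effect and that in other macrophages was 0.11 over the 18 glycolysis genes tested. Aldoa was at 459 ± 77.3 CPM in WT and 722 ± 76.7 CPM in Rnls mutant grafts, Pkm at 385 ± 100 and 633 ± 51.8 CPM and Gapdh at 645 ± 170 and 1011 ± 121 CPM, each at an edgeR adjusted p of 0.490 or more. Hexokinase 2, Hk2, was the gene below WT.

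In the resident macrophage list 0 of 23 genes lay above and 1 below WT. That gene was Cd163, the haemoglobin scavenger receptor, at 66.4, 169, 46.2 and 40.1 CPM in WT and at 13.2, 29.1, 10.96 and 15.4 CPM in Rnls mutant grafts (edgeR adjusted p = 0.490). Among 13 MHC class II genes, 11 had a fold change below 0 and 5 of these an unadjusted p under 0.05, with H2-Ab1 at 5788 ± 947 and 4694 ± 735 CPM, and 0 were separated without overlap. Over all 6422 genes tested, 3342 were below 0 and 260 were lower at an unadjusted p under 0.05. Of 18 heat shock genes and 19 immediate early genes, 0 lay above or below. The difference between the genotype effect in the cluster and that in other macrophages of the same grafts was tested directly, and 0 of 9383 genes passed with edgeR (0%), while 488 had an unadjusted p under 0.05. The smallest p belonged to Limk2, a kinase of the actin cytoskeleton, and Gpnmb, a lysosomal glycoprotein, both with a relatively lower level in the cluster of Rnls mutant grafts (edgeR adjusted p = 0.394).

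**Figure D5:**
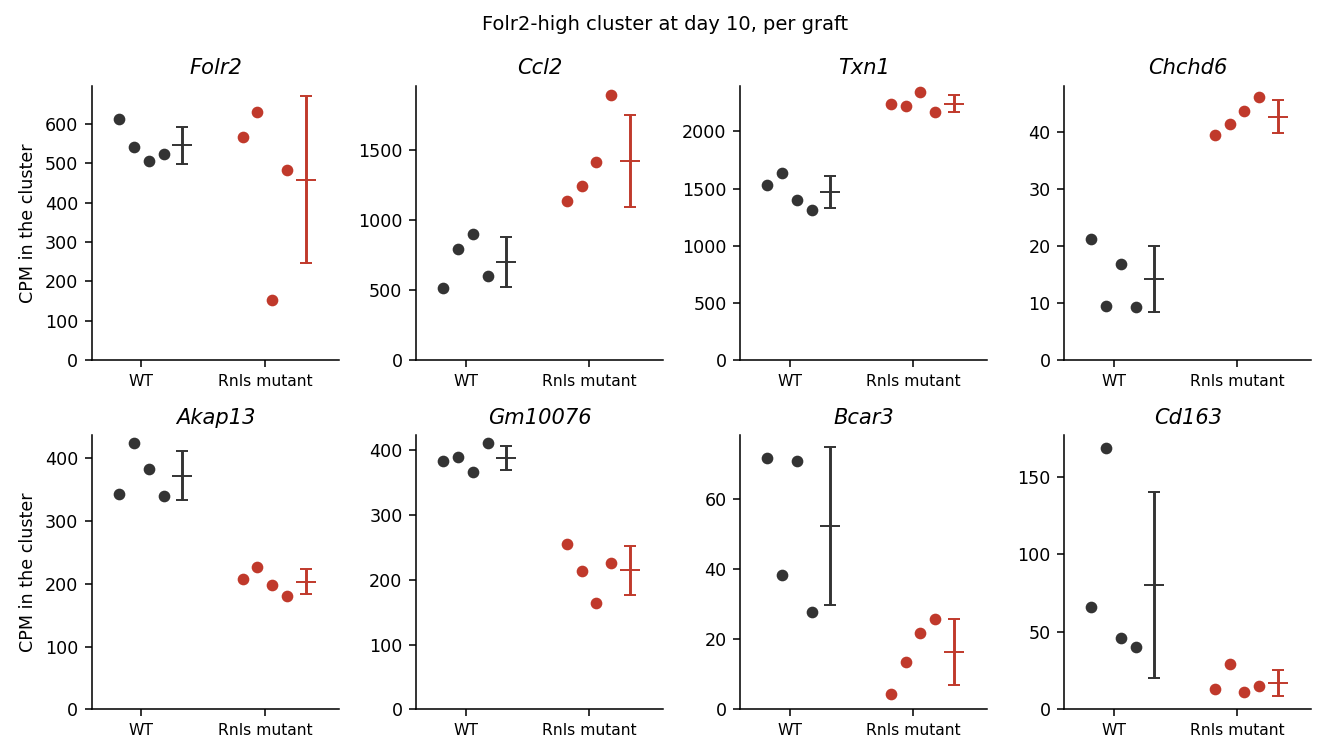
Levels of 8 genes in the Folr2-high cluster at day 10 in CPM, 1 point per graft, with the mean and SD of 4 grafts beside them. Folr2 overlaps between WT and Rnls mutant grafts, and the other 7 genes do not overlap, although none passed the adjusted test with edgeR.

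At day 17 the cluster was too small for the planned genotype and day contrasts, since 7 of 8 grafts gave 2 to 8 cells. The 29 cells of these grafts together held 147381 UMIs. Their summed profile kept C1qa (5041 CPM), Ccl8 (6554 CPM), Folr2 (366 CPM, 54 UMIs) and Klra8 (197 CPM), but Hspb1 was at 13.6 CPM on 2 UMIs. Hspa1a was at 1303 CPM. Of their 943 UMIs of Retnla, a secreted resistin-like protein, 874 came from the 2 cells of WT graft 1, a value noticed after the fact. With grafts of 5 cells or more, 3 Rnls mutant day 17 grafts could be set against 4 of day 10. Then 246 of 6700 genes (3.67%) passed with edgeR, 21 higher and 225 lower at day 17, while the median of all genes was itself at -0.42. Hspb1 was lower at day 17 by this fit (log2 fold change -4.86 ± 1.00, SE), as was Hspd1, the mitochondrial Hsp60 (-4.13 ± 0.50), both beyond that median shift. Hspb1 was picked for its ratio over mostly day 10 grafts, and the heat shock genes were grouped after their values were seen. The folds of Hspb1 and Hspd1 are therefore description and not a test. C1qa (-0.64 ± 0.33), Ccl8 (-0.64 ± 0.27) and Folr2 (-1.01 ± 0.49) were not called. These folds rest on 18 cells at day 17, and day cannot be told apart from the library. The remaining day 17 contrasts rest on WT graft 2, which stood apart, as their single WT graft. That graft was assumed to vary like the grafts of the other groups, so these contrasts cannot separate genotype or day from that graft, and only counts are given. With edgeR 483 of 6700 genes (7.21%) passed for day in WT grafts (7.32% with 10 cells per graft), 497 (7.42%) for day over both genotypes, 140 (2.09%) for genotype at day 17, 92 (1.37%) for genotype over both days and 97 (1.45%) for a genotype effect that differed between days.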

How the data were processed

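UMI counts per gene and cell, a cluster number, a cell type and a hashtag for each cell were deposited by the authors, who sorted CD45+ cells, pooled 4 hashtagged grafts per 10x 3' library (v3.1) and, per the submitters' processing notes, used Cell Ranger and mm10. Aligner settings, hashtag assignment and doublet removal are not given in the sources used here, and no doublet caller was run; cells had at least 1001 UMIs and at most 9.74% mitochondrial UMIs. The hashtag counts were not used here.

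The deposited counts were whole numbers and were used unchanged. The replicate was the graft (library and hashtag); which grafts shared a mouse is not given, and p-values measure the spread between these grafts. UMIs of the cluster were summed per graft, and grafts with at least 10 cells entered (8 at day 10, 1 at day 17). Ratios to other macrophages are the mean over grafts of log2((CPM + 1)/(CPM + 1)). Genotype was compared by the quasi-likelihood test of edgeR 4.0.16 in R 4.3.3, after filterByExpr and TMM scaling, with all 9 grafts in the fit; the SE is the log2 fold change over the square root of F. The difference from other macrophages used the same test with the graft as a block. DESeq2 1.42.0 was an alternative. Shares and single genes were compared with two-sided exact permutation tests over grafts. These tests and the main edgeR fits treated grafts as independent. The paper describes WT and Rnls mutant grafts as paired within mice, a pairing that could not be used here. The edgeR fit was tested on simulated data of the 8 day 10 grafts (200 genes drawn at 50 CPM or more, 194 of 197 tested recovered, 10 false calls).

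The members and gene lists were chosen with earlier results of these data known. Named genes are Folr2, 2 to 4 genes per list by level or p, the 25 highest and 10 lowest ratios at 50 CPM or more, up to 3 genes per direction by p where none passed, and genes among the 10 most correlated with Folr2 over clusters; some items are not reported here. Of 32285 gene names 97.3% matched GENCODE vM21 (GRCm38). Promoter windows are from RefSeq (GRCm38.p6). Cxcl11, Mx1 and Mx2 of the lists were not in the table. Shares of cells with a UMI were compared after thinning each cell to 2000 UMIs. The grouping of heat shock, immediate early and lymphoid-named genes followed their values. Alternatives covered the low-count filter, the cell minimum, a replicate block, cell filters, the pseudocount, pooling and leaving out grafts. Depth was 91257 to 893017 UMIs per day 10 graft. Tools were Python 3.11.15, NumPy 2.4.6, pandas 2.3.3 and SciPy 1.17.1.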

Additional observations from a re-analysis of the deposited data

Results flagged for a closer look

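In groups of 4 grafts, a graft was marked when its gap to the nearest of the others took up most of the group's range (Dixon's test at the 95% level). Of 98 groups tested 8 were marked, and chance marks about 1 in 20. The share of macrophages in the cluster was 12.1% in WT day 17 graft 2, far above the other 3 WT day 17 grafts. In Rnls mutant day 10 graft 3, which gave 12 cells, 5 transcripts of the cluster lay far below the other Rnls mutant grafts, with Klra9 at 0 CPM, C1qa at 2970 CPM, Hpgds at 21.9 CPM, Serpinb6a at 10.96 CPM and Gas6 at 0 CPM. Fcna was at 220 CPM in WT day 10 graft 2 and Egr1 at 856 CPM in WT day 10 graft 3, each above the other WT day 10 grafts. No result was marked for a difference in effect between groups, since 0 genes passed the direct test with edgeR (488 at an unadjusted p under 0.05).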

How the results depend on the processing

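The cluster was the highest in Folr2 also by the mean over grafts (449 CPM). Without a filter on low counts 48 genes passed for genotype at day 10 and 53 for the difference from other macrophages, and DESeq2 called 6 for genotype, against 0 with edgeR as reported; the cause was not tested. Leaving out 1 graft at a time gave 0 calls for genotype at day 10 and 0 to 1 for the difference, the 1 call without Rnls mutant day 10 graft 2. Among the named genes, Ccl2, Akap13 and Gm10076 passed by DESeq2 and without the filter, Txn1 by DESeq2 (log2 fold change 0.57), and Bcar3, Cd163, Tmem176a and Gpnmb without the filter, all in the main direction. The log2 fold change of Folr2 turned from -0.22 to 0.0354 with at least 20 cells per graft and without both grafts that stood apart. Leaving out 1 graft at a time it was -0.44 to 0.0175, positive without Rnls mutant graft 3, and Folr2 passed in none of these fits.

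Leaving out 1 graft at a time, the genotype difference in share was -15.1 to -4.30 points at day 10 and -3.86 to 0.0736 points at day 17, where the sign turned without WT graft 2. The difference between days was -21.1 to -16.6 points, and -2.75 points with all CD45+ cells as denominator. The log2 ratio of Folr2 was 2.63 to 3.95 without 1 graft and 1.66 with UMIs pooled over all grafts, where Slc9a9 turned to -0.58 and 4 of the 25 highest genes were shared; without both grafts that stood apart 14 were shared, and with a pseudocount of 10 CPM 4 of the 10 lowest.

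Rnls mutant and WT profiles with the same hashtag number correlated at 0.03, 0.10, -0.06 and -0.05. Those with different numbers correlated at -0.09 to 0.08. No combination stood out, so the correlations could not decide if the numbers pair the grafts. With the hashtag number as a replicate block 0 genes passed (442 at an unadjusted p under 0.05). The planned lymphoid filter removed 351 of the 551 cells, since Ighm and Klra8 are transcripts of the cluster, and gave 0 calls, as did a filter on T cell markers alone, which was chosen after seeing the data, like the fits without both grafts that stood apart, with cluster 4 as comparator and with 5 cells per graft at day 17. Only 1 day 17 graft, a WT graft, had 10 cells. With that minimum the day contrast was run in WT grafts only, on that graft alone at day 17. The other planned day contrasts, those at day 17, over both days and by day, and the day effect against other macrophages were not run with it. With 5 cells the WT arm at day 17 was a single graft that stood apart and was assumed to vary like the other groups. Depth limits these contrasts and the levels of genes under 50 CPM.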
